A study of Mus musculus with 4 samples.

Results

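The 10 genes described here encode G protein-coupled receptors that tune hormone release from pancreatic islets, and they were chosen as a list of symbols for the incretin, glucagon, fatty acid, adrenergic, muscarinic, somatostatin, galanin and adenosine receptors. All 10 were found among the 52636 genes of the count table. Islets of Tspan7 knockout mice (genotype Tspan7 y/-, hereafter KO, 2 libraries) were compared with islets of wild-type mice (WT, the control, 2 libraries). Tspan7 is an X-linked gene for a tetraspanin, a membrane protein that organises other proteins in the membrane. The sample labels say knockout, while the series text says knockdown. The sources used here give no strain or age and do not say whether each library came from its own animal. The p-values therefore reflect the variation among these libraries, which could be technical. The libraries held 9377220 and 7855665 counts in KO and 8704271 and 9140275 counts in WT. In whole islets, fewer cells of a type and less RNA per cell cannot be told apart.

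Receptors of this class sit in the plasma membrane and act through heterotrimeric G proteins. In beta cells, receptors coupled to Gs raise cyclic AMP and amplify glucose-stimulated insulin release, receptors coupled to Gq raise calcium and diacylglycerol through phospholipase C, and receptors coupled to Gi lower cyclic AMP, open potassium channels and hold release back. Glp1r, Gipr, Gcgr and Gpr119 are the Gs-coupled members, Ffar1 and Chrm3 the Gq-coupled ones, and Adra2a, Sstr3, Galr1 and Adora1 the Gi-coupled ones.

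No difference between KO and WT islets passed the test for any of the 10 receptor genes. All 10 passed the filter on low counts and were tested with the other genes, 16924 in all. edgeR's quasi-likelihood test, with Benjamini-Hochberg adjustment over all genes, called 0 members higher and 0 lower at an adjusted p under 0.05, against a background of 0.00591% of genes called. At an unadjusted p under 0.05 there were 0 members as well, against 3.51% of all genes (1.55% higher and 1.96% lower in KO). DESeq2, limma-voom and edgeR's likelihood ratio test each called 0 of the 10. The adjusted p was 0.9997 for each member. Of the 10 log2 fold changes (KO over WT) 6 were positive and 4 negative, from -0.44 to 0.43, with a median of 0.06 against 0.003 over all genes tested. In 3 members both KO libraries lay above both WT libraries and in 0 members below. Over all genes the groups did not overlap in 30.4%, with KO above WT in 15.3% and KO below WT in 15%, so the 3 of 10 stand near the background.

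**Figure D1:**
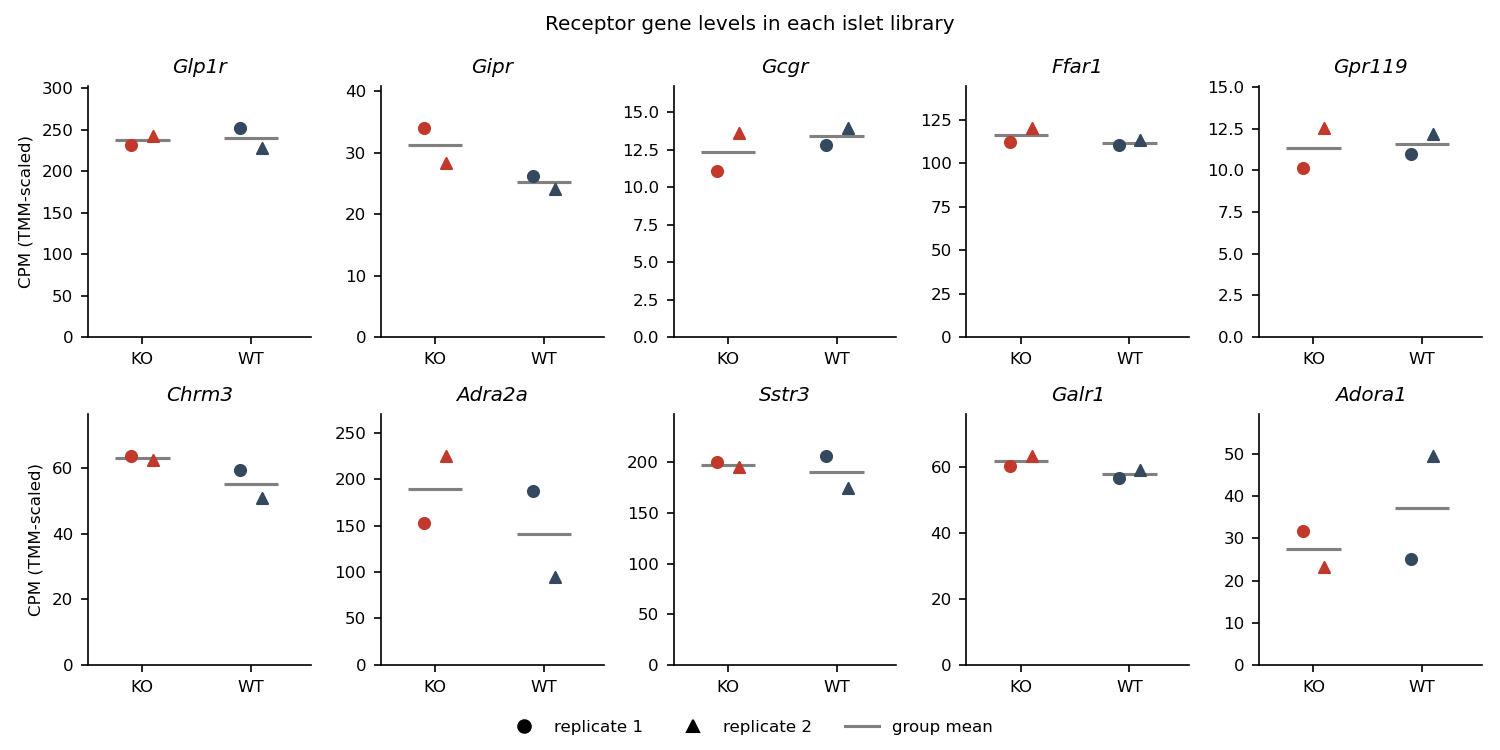
Level of each receptor gene in CPM (scaled for library size and composition by edgeR) in the 2 KO libraries (red, left) and the 2 WT libraries (dark, right), with grey lines at the group means and axes starting at 0. Gipr, Chrm3 and Galr1 have both KO points above both WT points, and Adra2a and Adora1 have the widest spread within WT.

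Glp1r (ENSMUSG00000024027), the receptor for the incretin GLP-1 and a drug target in diabetes, had 2241 and 1838 counts in KO libraries and 2138 and 2155 counts in WT libraries. Scaled to library size, in CPM units (each library's counts brought to 1 common total and adjusted for composition), this was 232 and 243 in KO, against 252 and 228 in WT. Both KO values lay between the WT values. The log2 fold change was -0.02 ± 0.13 (SE), and its 95% confidence interval (CI) ran from -0.32 to 0.29, or from 0.80 to 1.22 times the WT level. Glp1r was the member with the most counts, 8372 over the 4 libraries.

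Gipr (ENSMUSG00000030406) encodes the receptor for the other incretin, GIP. It had 34.0 and 28.4 CPM in KO islets, against 26.2 and 24.1 CPM in WT islets. Both KO libraries were above both WT libraries, by a narrow margin between KO replicate 2 and WT replicate 1. The means were 31.2 ± 3.98 CPM in KO and 25.2 ± 1.45 CPM in WT (SD, n = 2 each). Gipr had the smallest unadjusted p of the members in the edgeR fit (0.0918), with a log2 fold change of 0.31 and a 95% CI from -0.06 to 0.69. That p ranked 1168th of the 16924 genes. Without KO replicate 1 the log2 fold change was 0.18, and without KO replicate 2 it was 0.44.

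Gcgr (ENSMUSG00000025127), the glucagon receptor, through which alpha cells act on beta cells, had 11.1 and 13.6 CPM in KO islets, against 12.9 and 14.0 CPM in WT islets. The groups overlapped, with a log2 fold change of -0.13 and a 95% CI from -0.59 to 0.34. Gcgr rested on 451 counts over the 4 libraries. The gene of the ligands of Glp1r and Gcgr, Gcg, had 6898 and 6349 CPM in KO and 7536 and 5817 CPM in WT islets. Its log2 fold change was -0.01 (95% CI -0.40 to 0.37). Gip, the gene of the Gipr ligand, which is a gut hormone, had 0 counts in all 4 libraries.

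Within libraries, the ratio of Glp1r to Gipr (per length of exon) was 4.08 and 5.12 in KO, against 5.77 and 5.66 in WT. This was the 1 ratio without overlap among 6 ratios between members that were computed. An exact permutation test, two-sided, gave 0.333 (0.667 after adjustment over the 6), and 0.333 is the smallest p that 2 against 2 libraries allow. The ratio of Glp1r to Gcgr was 9.45 and 8.05 in KO and 8.85 and 7.36 in WT.

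The 2 lipid receptors had KO and WT values that overlapped. Ffar1 (ENSMUSG00000044453), the receptor for long-chain fatty acids once called GPR40, had 112 and 120 CPM in KO islets, against 110.3 and 113 CPM in WT islets. All 4 libraries lay within a narrow band. Its log2 fold change was 0.06 ± 0.13 (SE), with a 95% CI from 0.84 to 1.28 times the WT level. Ffar1 had the smallest standard error of the 10 members.

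Gpr119 (ENSMUSG00000051209) encodes a receptor for lipid amides such as oleoylethanolamide. It had 98 and 95 counts in KO and 93 and 115 counts in WT libraries, or 10.1 and 12.5 CPM against 10.97 and 12.2 CPM. The KO libraries gave both the lowest and the highest value. The log2 fold change was -0.03, with a 95% CI from -0.53 to 0.46. At 401 counts over all libraries, Gpr119 had the fewest counts of the members, with a counting error of about 9.99% per library.

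Chrm3 (ENSMUSG00000046159), the muscarinic receptor through which vagal acetylcholine stimulates beta cells, had 63.7 and 62.4 CPM in KO islets, against 59.4 and 50.7 CPM in WT islets. Both KO libraries were above both WT libraries. The difference between the WT libraries (1.17-fold) was larger than that between the group means (1.14-fold). The log2 fold change was 0.20 ± 0.14 (SE), with a 95% CI from -0.13 to 0.52 and an unadjusted p of 0.207 in the edgeR fit. It was 0.08 without WT replicate 2 and 0.31 without WT replicate 1.

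Sstr3 (ENSMUSG00000044933) encodes a receptor for somatostatin, the delta-cell hormone that restrains its neighbours. It had 200.0 and 196 CPM in KO islets, against 207 and 174 CPM in WT islets, so both KO values lay between the WT values. The log2 fold change was 0.06 (95% CI -0.27 to 0.38). Its ligand gene Sst had 993 and 933 CPM in KO and 1087 and 765 CPM in WT islets, and for Sst too both KO values lay between the WT values.

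Galr1 (ENSMUSG00000024553), a receptor for the inhibitory neuropeptide galanin, had 60.5 and 63.5 CPM in KO islets, against 56.6 and 59.1 CPM in WT islets. The KO libraries were both above the WT libraries, by a small step. The means were 62.0 ± 2.14 CPM in KO and 57.8 ± 1.73 CPM in WT (SD, n = 2 each), and the log2 fold change was 0.10 with a 95% CI from -0.20 to 0.41. The galanin gene Gal was close to the detection floor of 3 counts, with 1 and 4 counts in KO and 8 and 2 counts in WT libraries. It was not tested.

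Adra2a and Adora1 were the members with the largest differences in either direction, and in both the spread within WT islets was larger than the difference between genotypes. Adra2a (ENSMUSG00000033717) encodes the alpha-2A adrenergic receptor, through which adrenaline and noradrenaline suppress insulin release. It had 1477 and 1705 counts in KO libraries and 1583 and 889 counts in WT libraries, or 153 and 225 CPM in KO, against 187 and 94.1 CPM in WT. WT replicate 2 was low, and the other 3 libraries, KO and WT mixed, were higher. The log2 fold change was 0.43 ± 0.38 (SE), with a 95% CI from -0.55 to 1.41 and an unadjusted p of 0.309 in the edgeR fit. The value was 0.02 without WT replicate 2, 0.12 without KO replicate 2, 0.68 without KO replicate 1 and 1.002 without WT replicate 1. The last of these fits left WT replicate 2, the low library, as the only WT library.

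Adora1 (ENSMUSG00000042429), the adenosine A1 receptor, showed the opposite arrangement. It had 307 and 176 counts in KO libraries and 212 and 469 counts in WT libraries, or 31.8 and 23.3 CPM in KO, against 25.0 and 49.6 CPM in WT. WT replicate 2 was high and WT replicate 1 lay between the KO libraries. The log2 fold change was -0.44 ± 0.35 (SE), with a 95% CI from -1.30 to 0.43. It was -0.85 without WT replicate 1, -0.68 without KO replicate 1, -0.23 without KO replicate 2 and 0.14 without WT replicate 2. The 2 WT libraries differed 1.98-fold for Adra2a and 1.99-fold for Adora1. A difference that large between the WT libraries was seen in 1.85% and 1.84% of the 9610 genes with a mean of 10 to 300 CPM. For the 8 other members the WT libraries differed by 1.03- to 1.19-fold.

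WT replicate 2 also stood apart in its summed levels of acinar and ductal markers, low in the first and high in the second. The summed level of 10 markers of acinar cells, which secrete digestive enzymes and surround the islets, was 1278 and 5919 CPM in KO libraries and 2845 and 67.6 CPM in WT libraries. All 10 acinar markers were detected, and the 9 that passed the filter had positive log2 fold changes, with groups that overlapped in each. The 6 ductal markers summed to 201 and 213 CPM in KO libraries and 219 and 379 CPM in WT libraries, with WT replicate 2 the highest. The 5 ductal markers tested were divided, 2 with positive and 3 with negative log2 fold changes. Their median was -0.06 and their range -1.70 to 0.17. Ordered from low to high, the 4 libraries stood in the same order for the acinar sum and for Adra2a, and in the reverse order for Adora1. This order was noticed after the values were seen. The part of acinar and ductal RNA in the Adra2a and Adora1 differences was not tested. In the GENCODE M21 annotation 20.1% of the exonic length of Adora1 overlaps exons of Mybph, a gene on the other strand. Mybph had 12.8 and 8.98 CPM in KO and 7.90 and 18.6 CPM in WT islets, and it too was highest in WT replicate 2. The sources used here do not say whether counting used strand, so the Adora1 counts are uncertain to that extent. No exon of the other 9 members overlaps an exon of another gene in that annotation.

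**Figure D2:**
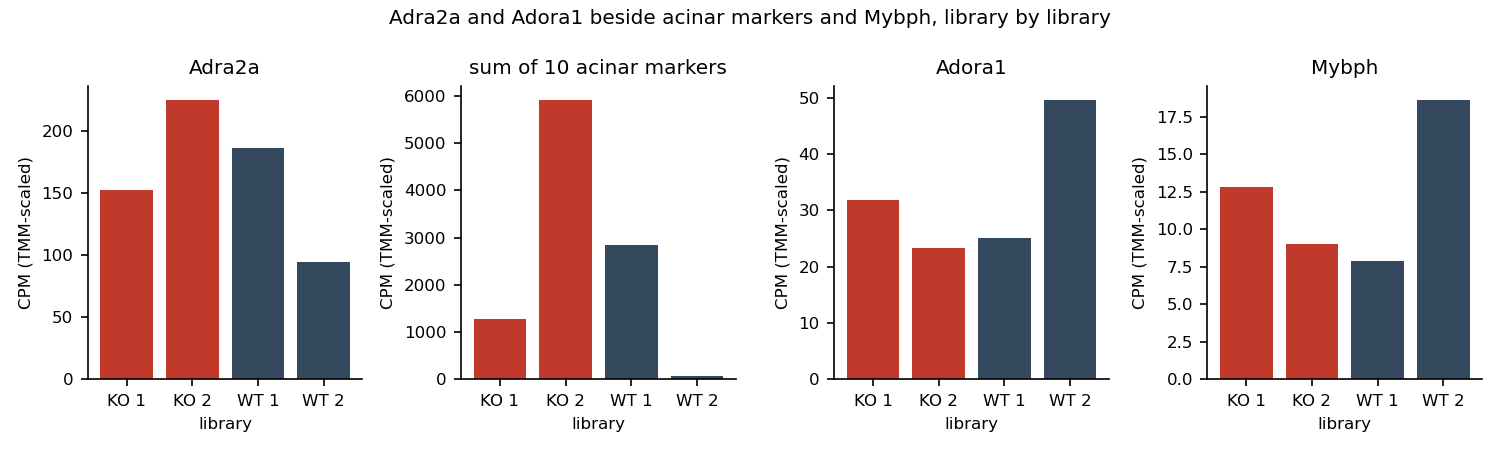
Levels in CPM (bars from 0) of Adra2a, the sum of 10 acinar markers, Adora1 and the overlapping gene Mybph in KO replicates 1 and 2 (red) and WT replicates 1 and 2 (dark). WT replicate 2 has the lowest Adra2a (94.1 CPM) and acinar sum (67.6 CPM) and the highest Adora1 (49.6 CPM) and Mybph (18.6 CPM).

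The precision differed between members. The CI spanned 0.80 to 1.22 times the WT level for Glp1r, 0.83 to 1.30 for Sstr3, 0.87 to 1.33 for Galr1 and 0.91 to 1.44 for Chrm3. It spanned 0.66 to 1.27 for Gcgr and 0.69 to 1.37 for Gpr119, the members with the fewest counts. For Adra2a it spanned 0.68 to 2.65 and for Adora1 0.41 to 1.34, although they rested on 5654 and 1164 counts in all. In 8 of the 10 members the larger of the within-group spreads exceeded the difference between the group means, and the exceptions were Gipr and Galr1.

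**Figure D3:**
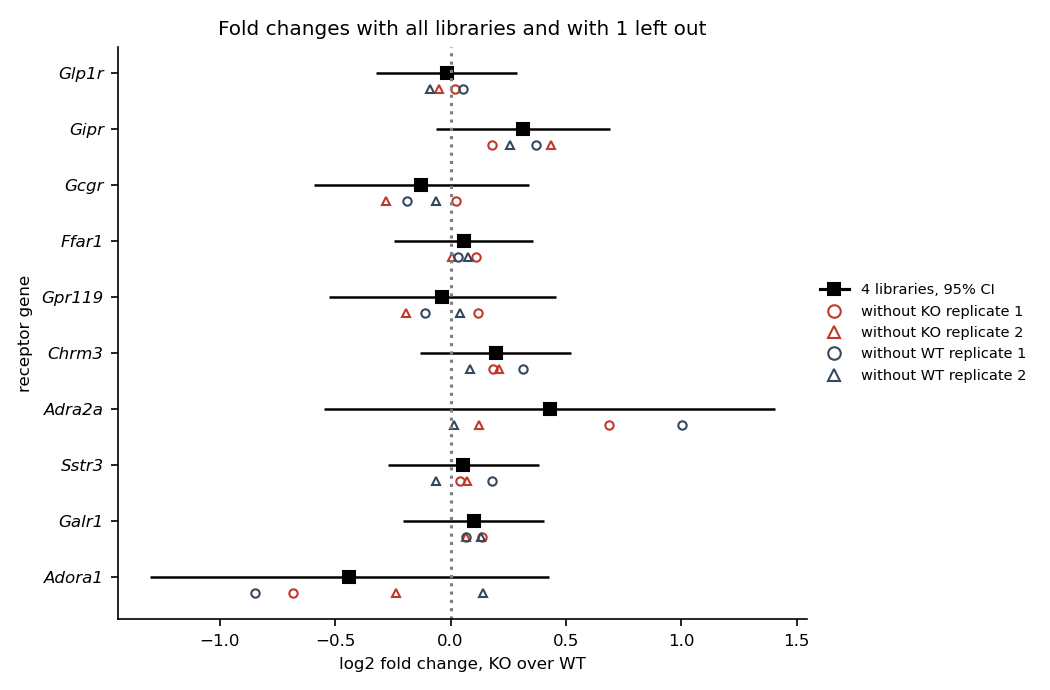
Log2 fold change (KO over WT) of each receptor gene with its 95% CI from edgeR (black), and below it the value with 1 library left out (red for a KO library, dark for a WT library). Every interval crosses 0, and the values with 1 library left out are most scattered for Adra2a (0.02 to 1.002) and Adora1 (-0.85 to 0.14).

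The members covered a wide range of levels. Levels of different genes were compared as CPM per kilobase of exon, with lengths from GENCODE M21 and as means ± SD over all 4 libraries. Sstr3 stood at 44.96 ± 3.24, Glp1r at 41.1 ± 1.88 and Adra2a at 34.1 ± 11.5, and each of these overlapped with the next in its range over libraries. Within libraries Sstr3 was above Glp1r in all 4, while Glp1r was above Adra2a in 3. Ffar1 followed at 27.3 ± 1.05, overlapping with Adra2a, and Galr1 at 20.1 ± 0.969, below Ffar1 in every library. Chrm3 at 9.44 ± 0.936 was below Galr1 in every library and, although its range overlapped with that of Gipr at 8.10 ± 1.23, above Gipr in every library. Gipr overlapped in turn with Adora1. At the low end Adora1 (5.60 ± 2.08), Gpr119 (5.05 ± 0.488) and Gcgr (4.91 ± 0.492) overlapped in their ranges, with Adora1 above Gpr119 in 2 libraries and Gpr119 above Gcgr in 3. The top and bottom members differed 9.15-fold, and the members lay between the 49.4th and 94.8th percentile of all tested genes by this measure.

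Among 127 receptor genes listed for this purpose, members included, 70 passed the filter. Sstr3 ranked 1st of the 70 per length, Glp1r 3rd and Adra2a 5th, with Ffar1 8th, Galr1 10th and Chrm3 21st. Gipr was 25th, and Adora1, Gpr119 and Gcgr were 30th to 32nd. The non-members ranked between these 3 highest members (Sstr3, Glp1r and Adra2a) were the adhesion receptor Adgrg1 (41.1) and the orphan receptor Gpr158 (40.2), named here for their level. As a share of the summed level of the 10 members, the 4 Gi-coupled receptors took 52.1% and 54.1% in KO libraries and 53.2% and 48.9% in WT libraries. Glp1r, Gipr and Gcgr together took 27.1% and 25.4% in KO and 27.1% and 28.6% in WT.

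Within their families, several members accounted for most of the receptor RNA measured in KO and WT islets alike. Sstr3 made up 93.8% to 96.4% of the length-scaled somatostatin receptor level across the 4 libraries. Sstr2 had 54 and 23 counts in KO and 26 and 41 in WT, and Sstr5 had 1 and 0 in KO and 0 and 1 in WT. Adra2a had at least 99.8% of the alpha-2 adrenergic level in each library, with 0 counts of Adra2b in any library and 1 of Adra2c in all. Of the muscarinic receptors, Chrm3 held 68.5% to 76.4% and the Gi-coupled Chrm4 19.4% to 28.3%. Glp1r held 73.9% to 77.7% of the glucagon receptor family. The receptors for GLP-2, secretin and growth hormone-releasing hormone had 11, 1 and 0 counts over all libraries.

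Other families were divided among subtypes. Galr1 held 56.7% to 63.5% of the galanin receptor level and Galr3 31.2% to 37.8%. Ffar1 held 63.1% to 68.2% of the free fatty acid receptors, with Ffar2, Ffar3 and Ffar4 at 5.80, 4.34 and 4.53 CPM per kilobase. Among the adenosine receptors the Gs-coupled Adora2b was the higher one in KO islets, at 8.41 and 11.2 CPM per kilobase, against 11.8 and 5.05 in WT islets. Adora1 had 5.49 and 4.02 in KO and 4.32 and 8.58 in WT. Adora2b thus exceeded Adora1 in 3 libraries and lay below it in WT replicate 2.

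**Figure D4:**
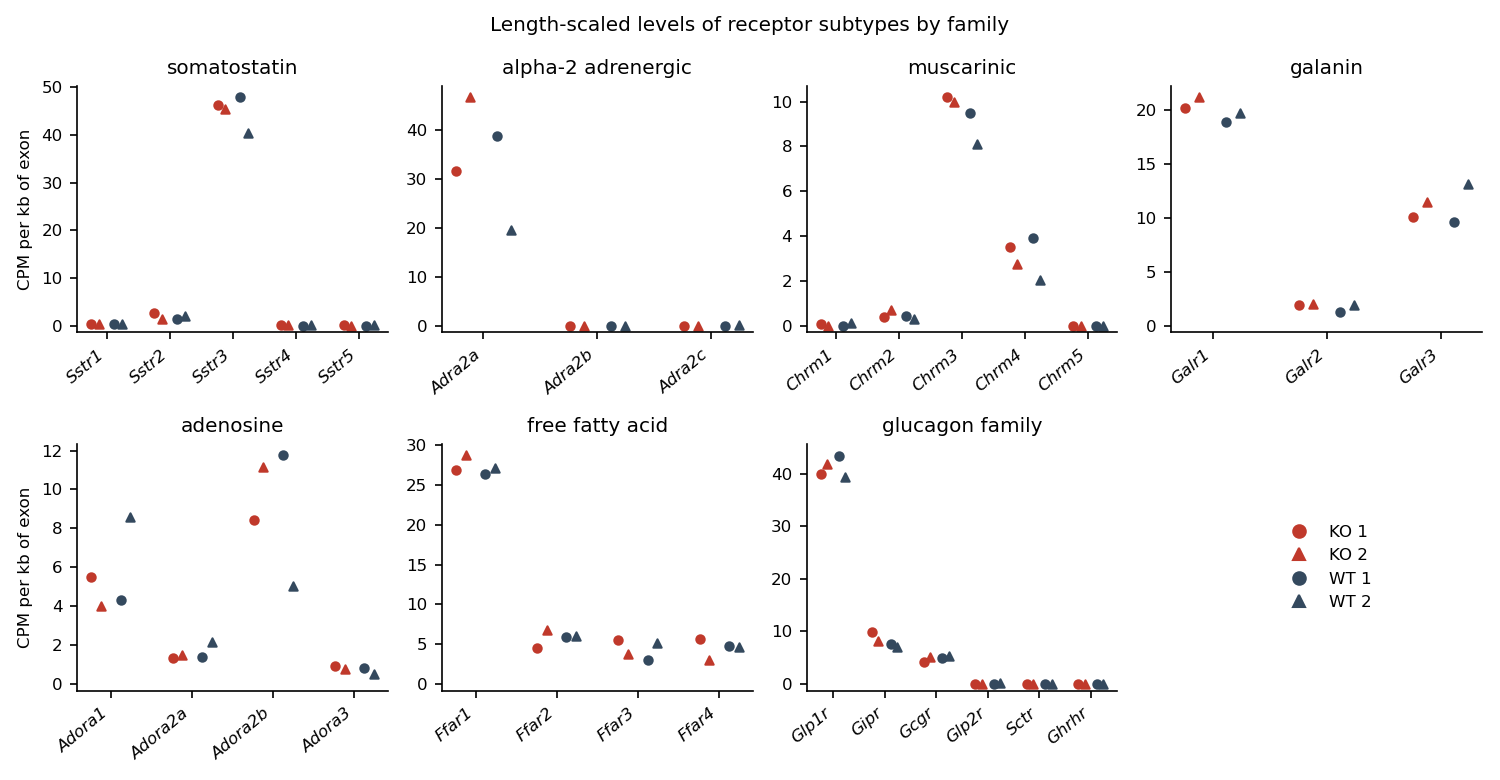
Length-scaled level (CPM per kilobase of exon, linear axes) of every subtype in the 7 receptor families, with KO libraries in red and WT libraries in dark. Sstr3 and Adra2a carry nearly all of their family's level, while the galanin, free fatty acid and adenosine families are divided among subtypes and the 2 adenosine receptors Adora1 and Adora2b change places in WT replicate 2.

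Genes around the receptors in the signalling path did not pass the test after the filter on low counts, and 2 of them did without it. Of 251 other listed genes in the count table, 168 passed the filter, and edgeR called 0 higher and 0 lower. With no low-count filter edgeR called 0 higher and 2 lower of 233, namely Rgs1 (log2 fold change -1.31, adjusted p 0.0153) and Cnr1 (log2 fold change -1.07, adjusted p 0.0235), against 0.194% of all genes called and 0.147% called lower under that setting. At an unadjusted p under 0.05, with the filter, there were 2 higher (1.19% of the 168, against 1.55% of all genes) and 8 lower (4.76%, against 1.96% of all genes). The 60 other receptors had 29 positive and 31 negative values with a median log2 fold change of -0.01. The 11 Gs-coupled ones had a median of 0.16, the 12 Gi-coupled ones 0.03, the 20 Gq-coupled ones -0.04 and the 17 adhesion, class C and orphan receptors -0.04. The groups did not overlap in 20.2% of the 168 genes, against 30.4% of all genes. The genes named below are the 2 of smallest p in each list, a choice that favours groups without overlap. Each had an adjusted p of 0.9997 in edgeR with the filter.

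Gabbr2, a subunit of the GABA-B receptor, had 66.0 and 72.7 CPM in KO islets, against 85.3 and 92.7 CPM in WT islets, without overlap. Its log2 fold change was -0.36 ± 0.14 (SE) with an unadjusted p of 0.0305 in the edgeR fit. Gpr142, an islet receptor for aromatic amino acids, had 11.8 and 11.8 CPM in KO, against 8.85 and 7.30 CPM in WT (log2 fold change 0.55). The endothelin receptor gene Ednrb stood at -0.52 and the cannabinoid receptor gene Cnr1 at -1.08, and in both the groups did not overlap, with WT replicate 2 the highest library. Cnr1 stood at -0.37 without WT replicate 2. Crhr2, a receptor for urocortins, stood at 1.24 on 1.61 CPM in KO and 0.69 CPM in WT. Adora2a stood at -0.33, the latrophilin gene Adgrl2 at -0.62 and the R-spondin receptor gene Lgr4 at 0.34.

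Downstream of the receptors, the 23 G protein subunits had a median of -0.05, with 7 positive and 16 negative values. The gamma subunit gene Gng2 stood at -0.51 and the beta subunit gene Gnb4 at -0.48, both without overlap. The 26 receptor kinases, arrestins, RGS proteins and RAMPs had a median of -0.06. RGS proteins speed the shut-off of G proteins, and RAMPs are accessory subunits of receptors. Rgs1, which is expressed mainly in leukocytes, had 4.55 and 2.51 CPM in KO islets, against 9.08 and 8.89 CPM in WT islets (log2 fold change -1.32 ± 0.32, SE), and Ramp3 stood at -0.65. The 11 macrophage markers all had negative values beside it, with sums of 77.7 and 66.6 CPM in KO and 109 and 91.1 CPM in WT, all of them detected, and their part in the Rgs1 difference was not tested. The 7 endothelial markers, 5 of them negative, summed to 446 and 520.0 CPM in KO and 513 and 521 CPM in WT. The 8 stellate and pericyte markers summed to 156 and 202 CPM in KO and 206 and 238 CPM in WT. Of the 7 that were tested, 5 were negative, with a median log2 fold change of -0.54. Both KO libraries lay below both WT libraries in 4 of these 7, 4 of the 7 endothelial markers and 7 of the 11 macrophage markers. The share over all genes was 15%. Both KO libraries lay above in 1 stellate and pericyte marker and in 0 of the endothelial and macrophage markers, against 15.3% of all genes. The part of endothelial, stellate and pericyte RNA in the Ednrb and Ramp3 differences was not tested.

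The 26 cyclic AMP effectors were evenly divided, 13 positive and 13 negative, with a median of -0.01. Pde8b, a phosphodiesterase gene, stood at -0.78, and the cyclic AMP-responsive transcription factor gene Crem at -0.28. The 17 phospholipase C effectors and potassium channel genes had a median of 0.03, with the calcium release channel gene Itpr1 at 0.31 and the diacylglycerol kinase gene Dgkz at -0.22. The 16 tested ligand precursors and ligand-cleaving enzymes had a median of -0.003. Th, which encodes the rate-limiting enzyme of catecholamine synthesis, had 24.9 and 19.6 CPM in KO islets, against 18.2 and 12.9 CPM in WT islets (log2 fold change 0.52, unadjusted p 0.0455 in edgeR). Ucn3 stood at 0.29 with overlapping groups. Several of these values rested on WT replicate 2. Without it the log2 fold change was 0.60 for Crhr2, -0.26 for Ednrb, -0.15 for Adgrl2, 0.02 for Lgr4, -0.27 for Gng2, -0.46 for Pde8b and 0.30 for Th.

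**Figure D5:**
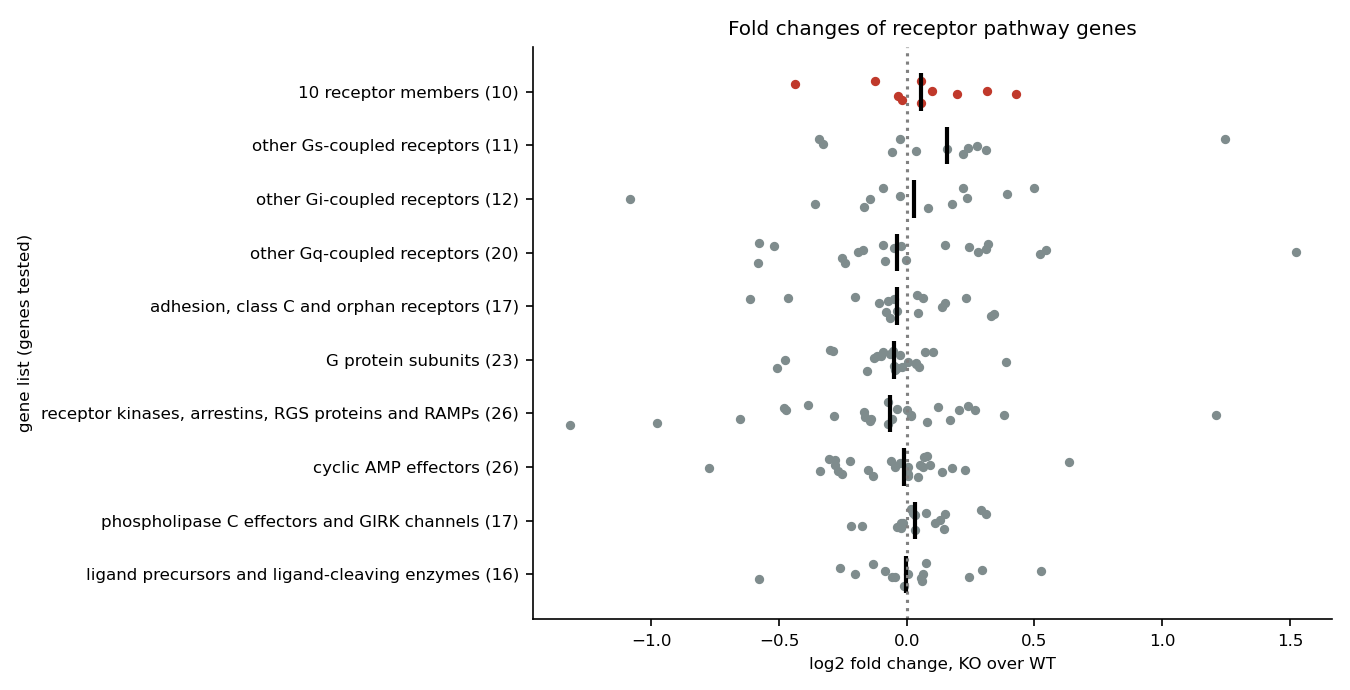
Log2 fold change (KO over WT, points) of the 10 receptor members (red) and of the tested genes of each pathway list (grey), with a black bar at the median of each list. The medians lie between -0.06 and 0.16, and no gene shown passed the threshold in edgeR's test with the low-count filter. Rgs1 and Cnr1 passed it with no filter.

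The knockout and the tissue were checked in the same libraries. Tspan7 had 3 and 2 counts in KO and 1924 and 1795 counts in WT libraries (log2 fold change -9.42, adjusted p 3.51e-06 in edgeR), and it was the 1 gene called among 16924. Markers of all 4 main islet cell types were present. The 10 beta-cell markers summed to 15303 and 20624 CPM in KO and 18892 and 16332 CPM in WT, and the 7 alpha-cell markers to 7618 and 7049.8 CPM in KO and 8325 and 6371 CPM in WT. The 4 delta-cell markers summed to 1059 and 974 CPM in KO and 1145.5 and 821 CPM in WT, and the 2 markers of pancreatic polypeptide cells to 1198 and 1494 CPM in KO and 1182 and 1380.1 CPM in WT. Ins2, the insulin gene, had 5284 and 7065 CPM in KO and 6310 and 5666 CPM in WT islets.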

How the data were processed

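Raw counts per Ensembl gene were deposited by the authors for 4 islet libraries. Per the submitters' processing notes, reads were handled with HISAT2 and featureCounts on GRCm39, and the labels' protocols name a directional library kit. The sources used here give neither the annotation release nor the strand setting nor the treatment of multi-mapping reads. Symbols and exonic lengths came from GENCODE M21, built on GRCm38, which named 52403 of 52636 identifiers, so no coordinates are given.

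Counts were analysed in edgeR 4.0.16 (R 4.3.3), with filterByExpr at a minimum count of 10, scaling by trimmed mean (TMM) and a robust quasi-likelihood F test, two-sided, adjusted by Benjamini-Hochberg. DESeq2 1.42.0 and limma 3.58.1 were alternatives. The pipeline was tested on simulated data, with the spread estimated from these libraries. It called 4% of 1.5-fold, 50% of 2-fold, 92% of 3-fold and 90% of 4-fold changes in the right direction. Of all its calls at an adjusted p under 0.05, 12.6% were false. At these depths 3 counts, the detection floor, are 0.310 to 0.396 CPM. Intervals of the fit include the spread between libraries, and the reads carry no molecular identifiers. The members and lists were chosen with earlier results of these data known. All members were named, with the 2 genes of smallest unadjusted p per pathway list and Gcg, Sst, Gal, Ins2 and Tspan7. The ratios between members were added later.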

Additional observations from a re-analysis of the deposited data

How the results depend on the processing

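Under the 13 alternatives tried, 0 of the 10 receptor genes passed the threshold, and the lowest adjusted p of a member was 0.222, for Adra2a without WT replicate 1. Of 130 member values, 123 kept their sign. The 7 others all came from leaving out a library. Unadjusted p-values of Adora1 and Adra2a in edgeR were 0.0171 and 0.0356 with no low-count filter (adjusted 0.824 and 0.952). That setting called more genes in general, 0.194% of all genes at an adjusted p under 0.05, against 0.00591% with the filter. The share of all genes at an unadjusted p under 0.05 in that setting is not given here. For Adra2a the unadjusted p in edgeR was 0.0107 with crossed replicate numbers as a block (adjusted 0.695). With 1 library left out, log2 fold changes ran from -0.088 to 0.055 for Glp1r, -0.28 to 0.023 for Gcgr, -0.19 to 0.12 for Gpr119, -0.063 to 0.18 for Sstr3 and -0.85 to 0.14 for Adora1. For members whose sign held they ran from 0.18 to 0.44 for Gipr, 0.0053 to 0.11 for Ffar1, 0.085 to 0.31 for Chrm3, 0.017 to 1.002 for Adra2a and 0.065 to 0.14 for Galr1. Some named genes outside the members changed sign when 1 library was left out. Their values ran from -0.61 to 0.023 for Adora2a, -0.0022 to 0.57 for Itpr1 and -0.47 to 0.087 for Dgkz. The ranges were -0.0044 to 0.54 for Ucn3, -0.18 to 0.33 for Sst, -0.19 to 0.19 for Gcg and -0.18 to 0.24 for Ins2. Over all genes, calls ran from 0 to 33 higher and 1 to 15 lower with 1 library left out, both highest without WT replicate 1. Counts were 15 higher and 47 lower with no low-count filter, 2 and 14 with the likelihood ratio test, and 0 and 4 with DESeq2. The cause was not tested. With no low-count filter the pathway genes Rgs1 (-1.31, adjusted p 0.0153) and Cnr1 (-1.07, adjusted p 0.0235) passed in edgeR, and under the 12 other alternatives 0 pathway genes did. With the replicate number as a block (replicate block), calls over all genes were 1 higher and 5 lower. Same-numbered libraries deviated in opposite directions (correlation -0.300), and crossed ones in the same direction (0.300). With 2 libraries a group these values can differ only in sign. The check therefore cannot decide whether same-numbered libraries were paired. Crossed pairing, added after seeing the data, gave 1 higher and 1 lower over all genes. With 2 libraries a group, the widths of the intervals limit what could be detected.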
